A study of Mus musculus with 8 samples.

Results

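The kinases described here form the core of the ERK cascade: Araf and Braf (Raf kinases), Map2k1 and Map2k2 (Mek1 and Mek2), Mapk3 (Erk1), and Rps6ka1, Rps6ka2 and Rps6ka3 (Rsk1, Rsk3 and Rsk2). Their probes were taken as all non-control probes whose accession maps to one of these symbols, which gave 14 of the 55681 probes for 8 of the 20972 gene symbols on the array. All 14 passed the filter on dim probes. Messenger RNA came from mouse embryonic stem cells and was read on 8 single-colour Agilent arrays. These pluripotent cells were kept in LIF, which maintains the undifferentiated state, and in 250 nM PD173074, an FGF receptor inhibitor. Every group carried both LIF and the inhibitor. In the 4OHT group (3 arrays) 5 µM actinomycin D, which blocks transcription, was given 30 min before 4 h with 250 nM 4-hydroxytamoxifen (4OHT). In the vehicle group (2 arrays) the same actinomycin D dose and lead time preceded 4 h with ethanol. The untreated group (3 arrays, 0 h) received neither agent according to its treatment label, although its array titles carry the same abbreviation as the actinomycin D arrays. By the study's design each condition had 3 biological replicates; the vehicle group is represented here by 2. The labels name no cell line or clone and do not say what 4OHT acts on in these cells.

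In the ERK cascade, receptors that activate Ras recruit Raf kinases to the membrane, Raf phosphorylates Mek, Mek phosphorylates Erk, and Erk phosphorylates many substrates, the Rsk kinases among them. In mouse embryonic stem cells this cascade, driven mainly by FGF, is known for moving cells out of naive self-renewal, and its activity is set chiefly by phosphorylation and by feedback inhibitors whose mRNAs turn over quickly. The mRNAs of the kinases themselves are the subject here: how their signals stood after transcription had been blocked, and whether 4OHT changed them.

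All values are log2 intensities minus the array's own 75th percentile (the 75th-percentile scale), so a difference between groups is relative to the bulk of the array. On this scale the median of all 33008 probes tested was −0.04 for 4OHT minus vehicle, 0.40 for vehicle minus untreated and 0.33 for 4OHT minus untreated. On a scale set by the arrays' spike-in control probes these medians were −0.35, −0.88 and −1.25. The raw 75th percentile ran from 180 to 209 with 4OHT, from 166 to 205 with vehicle and from 333 to 457 in untreated cells. Fewer cells and less RNA per cell cannot be told apart in such bulk samples, and what lowered the signal was not tested. The labels do not describe how spike-in RNA was added, so values on that scale are not amounts per cell. The 4OHT arrays lay on slide 1 and the others on slide 2, so slide and 4OHT cannot be told apart, and vehicle and untreated arrays lay in different rows of slide 2, which leaves array row and treatment inseparable as well. Embryonic stem cell markers were well above background on every array for 10 of 10 genes in each group. Their summed linear level ran from 1060 to 1200 with 4OHT, from 1230 to 1260 with vehicle and from 877 to 1000 untreated. Of 10 feeder fibroblast markers 5 were so in each group, with Fbn1 among them in both actinomycin D groups and Twist1 in its place untreated. The summed linear level of the feeder markers ran from 4.18 to 4.58 with 4OHT, from 3.51 to 3.93 with vehicle and from 2.68 to 3.87 untreated. Of 10 primitive endoderm markers, 4 were well above background with 4OHT, 4 with vehicle and 9 untreated, with summed levels of 0.609 to 0.884, 0.761 to 1.01 and 1.06 to 1.34; Gata6, Sox17, Sox7, Pdgfra and Foxa2 were not well above background on every array of either actinomycin D group. The part of these other cell types in the kinases' values was not tested.

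After actinomycin D most kinase probes stood higher relative to the array's 75th percentile and lower relative to the spike-in probes. The median of all probes moved the same way on each scale. For vehicle against untreated, 11 of the 14 probes were called higher and 0 lower (limma, adjusted p under 0.05), beside 42.1% of all probes called higher and 16.0% called lower. An unadjusted p under 0.05 was reached by 11 of the 14, beside 63.1% of all probes. The arrays did not overlap for 12 of the 14, all higher, beside 51.3% of all probes with vehicle higher and 20.4% with vehicle lower. The median difference of the 14 probes was 0.66, against 0.40 over all probes. For 4OHT against untreated, 10 of 14 were called higher and 0 lower, beside 42.2% and 18.7% of all probes, with a median of 0.70 against 0.33. The arrays did not overlap for 11 of the 14, all higher, beside 46.1% of all probes higher and 21.1% lower, and 10 had an unadjusted p under 0.05, beside 65.0%. For 4OHT against vehicle, 0 of 14 were called in either direction, beside 0.936% of all probes called higher and 2.51% lower, and 0 of 14 had an unadjusted p under 0.05, beside 19.0% of all probes. The 3 comparisons share their groups pairwise, so they are given side by side.

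**Figure D1:**
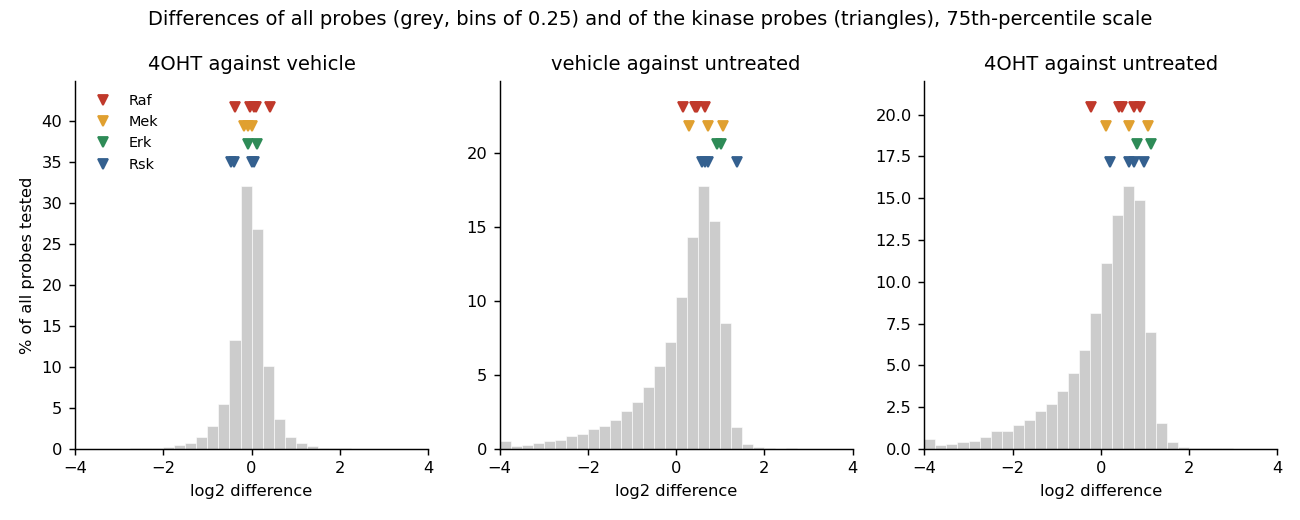
Log2 difference (horizontal axis) of all 33008 probes as grey bars (percent of probes per bin of 0.25, values beyond 4 in the end bins) and of the 14 kinase probes as triangles coloured by cascade step, for the 3 comparisons on the 75th-percentile scale. The kinase probes lay from −0.46 to 0.41 for 4OHT against vehicle, from 0.15 to 1.39 for vehicle minus untreated and from −0.23 to 1.14 for 4OHT minus untreated, and on the spike-in scale 13 of the 14 were below 0 for vehicle against untreated.

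Of the Raf kinases, which receive the signal from Ras, Araf is the less active relative and Braf the strongest activator of Mek. The brightest Araf probe (A_51_P301259) read 3.99, 4.35 and 4.40 with 4OHT, 3.62 and 4.05 with vehicle, and 3.52, 3.12 and 3.45 in untreated cells. Every actinomycin D array lay above every untreated array, while 4OHT and vehicle overlapped. With 4OHT it rose by 0.88 ± 0.18 (SE; 1.84-fold, adjusted p = 0.0046) over untreated, and it was at −0.17 unscaled and at −0.70 on the spike-in scale. With vehicle the difference from untreated was 0.48 ± 0.20 (adjusted p = 0.081), with a confidence interval reaching 0.95, and it was below 0 with cyclic loess (−0.05), unscaled (−0.62) and on the spike-in scale (−0.80). The probe A_55_P2049856 read 2.77, 2.71 and 2.70 with 4OHT, 2.62 and 2.63 with vehicle, and 1.92, 2.01 and 1.97 in untreated cells, 3 tight groups that did not overlap. Both other Araf probes were called higher with vehicle, A_55_P2049856 by 0.66 (adjusted p = 0.00071) and the dimmer A_55_P2049854 by 0.46 (adjusted p = 0.016), and they were at −0.62 and −0.82 on the spike-in scale. The call of the dimmer probe was lost without vehicle replicate 2 (0.34, adjusted p = 0.11), after quantile normalization (adjusted p = 0.052), with cyclic loess (0.22, adjusted p = 0.23) and with array-median scaling (adjusted p = 0.17). That of A_55_P2049856 was lost with array-median scaling (adjusted p = 0.052), and both were below untreated unscaled (−0.44 for A_55_P2049856 and −0.64 for the dimmer probe). The brightest probe's vehicle difference passed the test with a variance trend in the fit (adjusted p = 0.044), and its 4OHT call was lost with cyclic loess (0.36, adjusted p = 0.12). The mean of the Araf probes, which takes in both other probes, was called higher with vehicle (0.53, adjusted p = 0.0052).

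Neither Braf probe was called in any of the 3 comparisons on this scale. Its brightest probe (A_51_P403760) read 1.27, 0.90 and 0.72 with 4OHT, 1.58 and 1.09 with vehicle, and 1.23, 1.20 and 1.14 in untreated cells. The groups overlapped in all 3 comparisons, with the untreated arrays tightly placed and the actinomycin D arrays spread on both sides of them. Vehicle minus untreated was 0.15 ± 0.20 (adjusted p = 0.55) and 4OHT minus untreated −0.23 ± 0.18 (adjusted p = 0.31); normexp background (−0.05), cyclic loess (−0.14), unscaled values (−0.95) and the spike-in scale (−1.13) put vehicle below untreated. Relative to all probes, these differences stood at the 37.4th and the 27.5th percentile. The second Braf probe (A_55_P2170787) read −1.41, −1.96 and −1.84 with 4OHT, −1.33 and −2.26 with vehicle, and −2.15, −2.02 and −2.46 in untreated cells. Its 4OHT arrays lay above the untreated arrays, and its vehicle arrays stood far apart, 1 above all others and 1 among the untreated arrays. Vehicle minus untreated was 0.42 ± 0.30 (adjusted p = 0.27) and 4OHT minus untreated 0.47 ± 0.27 (adjusted p = 0.17). Without vehicle replicate 2 the vehicle difference was called at 0.88 (adjusted p = 0.042), and without vehicle replicate 1 it stood at −0.04. With normexp background this probe was called higher with vehicle (0.52, adjusted p = 0.0055) and with 4OHT (0.55, adjusted p = 0.0018).

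The stretch before the Braf start site is shown because it was the only one of the members' promoters to hold the cAMP response element TGACGTCA, in capitals (RefSeq, GRCm38.p6, 250 bases before to 50 after the start, chr6:39725414-39725713, minus strand).
Braf promoter: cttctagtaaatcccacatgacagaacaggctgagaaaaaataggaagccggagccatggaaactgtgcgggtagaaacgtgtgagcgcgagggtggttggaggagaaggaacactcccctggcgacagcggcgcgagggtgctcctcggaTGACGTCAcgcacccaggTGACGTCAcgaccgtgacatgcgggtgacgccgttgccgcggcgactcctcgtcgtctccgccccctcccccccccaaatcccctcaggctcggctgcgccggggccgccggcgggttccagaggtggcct
Searched on both strands, this motif was present 2 times here and in 1.79% of 32851 promoters of the same length. Promoters were found for 6 of the 8 genes, 8 promoters in all, and Mapk3 and Rps6ka3 are named only. A match is a description of these letters and not a binding site.

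Of the Mek kinases, the dual-specificity kinases that activate Erk, Map2k1 and Map2k2 are close relatives. Map2k1 (A_51_P241074) read 4.06, 4.14 and 3.99 with 4OHT, 4.16 and 4.31 with vehicle, and 3.95, 3.96 and 3.94 in untreated cells. The 3 groups did not overlap, but the steps between them were small, the untreated arrays differing by 0.01 (SD, n = 3). With vehicle it rose by 0.28 ± 0.09 (1.22-fold, adjusted p = 0.036), with −0.14 after quantile normalization, −0.27 with cyclic loess, −0.81 unscaled and −0.99 on the spike-in scale. That call was lost on leaving out any array other than vehicle replicate 1 (0.21 to 0.29, adjusted p from 0.053 to 0.19). It was also lost with array-median scaling (adjusted p = 0.35), with no filter (0.10), with only the groups compared (0.080) and with the replicate block (0.093). With 4OHT the difference from untreated was 0.11 ± 0.08 (adjusted p = 0.28).

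The brightest Map2k2 probe (A_51_P439626) read 3.90, 4.11 and 4.15 with 4OHT, 4.07 and 4.18 with vehicle, and 3.51, 3.24 and 3.45 in untreated cells. Both actinomycin D groups overlapped each other and lay above all untreated arrays. It rose by 0.72 ± 0.13 with vehicle (1.65-fold, adjusted p = 0.0027) and by 0.65 ± 0.11 with 4OHT (1.57-fold, adjusted p = 0.0023), both relative to untreated, and was below untreated unscaled (−0.37 and −0.41) and on the spike-in scale (−0.55 and −0.93). Its second probe (A_55_P2152292) read 3.42, 3.63 and 3.62 with 4OHT, 3.39 and 3.71 with vehicle, and 2.52, 2.42 and 2.54 in untreated cells, with the same order of groups. That probe rose by 1.06 ± 0.13 with vehicle (adjusted p = 0.00059) and by 1.07 ± 0.12 with 4OHT (adjusted p = 0.00028), with −0.22 and −0.51 on the spike-in scale. Of the brightest probe, the vehicle call was lost with cyclic loess (0.19, adjusted p = 0.22) and array-median scaling (adjusted p = 0.055), and the 4OHT call with cyclic loess (0.13, adjusted p = 0.34).

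The promoters of both Mek genes are shown because, of the pairs compared within arrays further on, theirs had the lowest exact p; the GC box GGGCGG, found on either strand, is in capitals. Map2k1 lies at chr9:64253556-64253855, minus strand, and Map2k2 at chr10:81105665-81105964, plus strand, in the same RefSeq build.
Map2k1 promoter: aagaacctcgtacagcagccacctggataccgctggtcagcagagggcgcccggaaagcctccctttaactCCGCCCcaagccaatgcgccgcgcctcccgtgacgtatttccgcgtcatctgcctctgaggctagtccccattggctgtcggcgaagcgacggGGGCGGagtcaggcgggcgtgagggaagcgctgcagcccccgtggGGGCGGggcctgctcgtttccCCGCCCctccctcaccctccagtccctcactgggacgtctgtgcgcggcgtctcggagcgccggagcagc
Map2k2 promoter: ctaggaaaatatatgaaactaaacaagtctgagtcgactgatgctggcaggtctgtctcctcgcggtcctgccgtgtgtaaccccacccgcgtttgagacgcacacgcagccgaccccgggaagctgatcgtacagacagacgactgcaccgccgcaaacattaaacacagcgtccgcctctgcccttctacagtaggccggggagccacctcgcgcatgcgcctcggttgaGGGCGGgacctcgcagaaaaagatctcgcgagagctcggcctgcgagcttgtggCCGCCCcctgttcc
The GC box occurred 4 times in the Map2k1 stretch and 2 times in the Map2k2 stretch, in 5 of the 8 member promoters and in 35.7% of all promoters. The ETS-type motif CCGGAAGT, also searched on both strands, was in 0 of the 8 and in 3.89% of all. None of the 3 motifs contains another. The CpG count was 31 for Map2k1 and 28 for Map2k2, against a median of 7 over all promoters, of which 20.0% held at least 24. The other member promoters held 14 (Araf), 30 (Braf), 24 (Rps6ka2) and 39, 6 and 3 (Rps6ka1).

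Mapk3 encodes Erk1, the kinase that Mek activates. Its brightest probe (A_52_P243249) read 4.48, 4.36 and 4.37 with 4OHT, 4.72 and 4.27 with vehicle, and 3.63, 3.65 and 3.43 in untreated cells. All 5 actinomycin D arrays lay above all untreated arrays, and the 4OHT arrays lay between the vehicle arrays. It rose by 0.92 ± 0.15 with vehicle (1.90-fold, adjusted p = 0.0019) and by 0.83 ± 0.14 with 4OHT (1.78-fold, adjusted p = 0.0016), both relative to untreated, and was below untreated unscaled (−0.17 and −0.22) and on the spike-in scale (−0.35 and −0.75). A further probe (A_55_P2121662) read 3.25, 3.16 and 3.15 with 4OHT, 3.10 and 3.03 with vehicle, and 2.01, 2.19 and 1.93 in untreated cells, and its 3 groups did not overlap. That probe rose by 1.02 ± 0.11 with vehicle (adjusted p = 0.00035) and by 1.14 ± 0.10 with 4OHT (adjusted p = 0.00011), with −0.26 and −0.44 on the spike-in scale. With cyclic loess both calls of the brightest probe were lost (0.37, adjusted p = 0.11 with vehicle, and 0.29, adjusted p = 0.13 with 4OHT). The vehicle differences of the 2 probes stood at the 85.2th and 90.3th percentiles of all probes.

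The Rsk kinases act below Erk on transcription factors, translation factors and survival proteins. Rps6ka1 (A_55_P2139256) read 6.80, 6.86 and 6.99 with 4OHT, 6.80 and 6.94 with vehicle, and 6.18, 6.18 and 6.05 in untreated cells. The actinomycin D groups overlapped each other and lay above untreated. It rose by 0.73 ± 0.10 with vehicle (1.66-fold, adjusted p = 0.0011), with −0.08 after quantile normalization and with cyclic loess, −0.36 unscaled and −0.54 on the spike-in scale. With 4OHT it rose by 0.75 ± 0.09 over untreated (1.68-fold, adjusted p = 0.00049), with −0.01 after quantile normalization, −0.00 with cyclic loess, −0.31 unscaled and −0.83 on the spike-in scale.

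Rps6ka2 (A_55_P1986888) read −1.28, −1.04 and −1.11 with 4OHT, −1.19 and −1.20 with vehicle, and −1.82, −1.67 and −1.85 in untreated cells. Again both actinomycin D groups overlapped each other above the untreated arrays. It rose by 0.58 ± 0.11 with vehicle (1.5-fold, adjusted p = 0.0036) and by 0.63 ± 0.10 with 4OHT (1.55-fold, adjusted p = 0.0012), and was below untreated unscaled (−0.51 and −0.42) and on the spike-in scale (−0.69 and −0.94). Array-median scaling ended the vehicle call (adjusted p = 0.074).

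Rps6ka3, the Rsk gene mutated in Coffin-Lowry syndrome in humans, had the widest spread within each group of the 3 Rsk genes' brightest probes. Its brightest probe (A_52_P283628) read 0.42, −0.10 and −0.15 with 4OHT, 0.75 and 0.27 with vehicle, and −0.15, 0.05 and −0.34 in untreated cells. The vehicle arrays lay above the untreated arrays, whereas the 4OHT arrays overlapped both. With vehicle it rose by 0.66 ± 0.23 (1.58-fold, adjusted p = 0.044), with −0.44 unscaled and −0.62 on the spike-in scale. That call was lost without untreated replicate 1 or 3, vehicle replicate 1, or 4OHT replicate 2 or 3 (0.42 to 0.66, adjusted p from 0.053 to 0.24). It was also lost after quantile normalization (adjusted p = 0.075), with cyclic loess (0.21), array-median scaling (0.062), no filter (0.082) and the replicate block (0.068). With 4OHT the difference from untreated was 0.20 ± 0.21 (adjusted p = 0.43). The second, dim probe (A_55_P1952981) read −3.32, −4.06 and −3.42 with 4OHT, −3.10 and −3.30 with vehicle, and −5.26, −3.92 and −4.59 in untreated cells. Its vehicle arrays were the highest, and its 4OHT and untreated arrays overlapped. It was well above background on all actinomycin D arrays but on only 2 of the 3 untreated arrays. It was called higher with vehicle (1.39 ± 0.39, adjusted p = 0.020) and with 4OHT (0.99 ± 0.35, adjusted p = 0.044), and stood at 0.11 and −0.59 on the spike-in scale. Both calls were lost without untreated replicate 3 (adjusted p = 0.055 and 0.11), vehicle replicate 1 (0.093 and 0.066) or vehicle replicate 2 (0.070 and 0.071), and the 4OHT call also without untreated replicate 1 or 4OHT replicate 1 or 3 (0.11 to 0.12). The replicate block also ended both (adjusted p = 0.055 and 0.091), as did unscaled values (0.29 with vehicle and −0.07 with 4OHT), and the 4OHT call was lost with no filter (adjusted p = 0.074) and with only the groups compared (0.064).

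**Figure D2:**
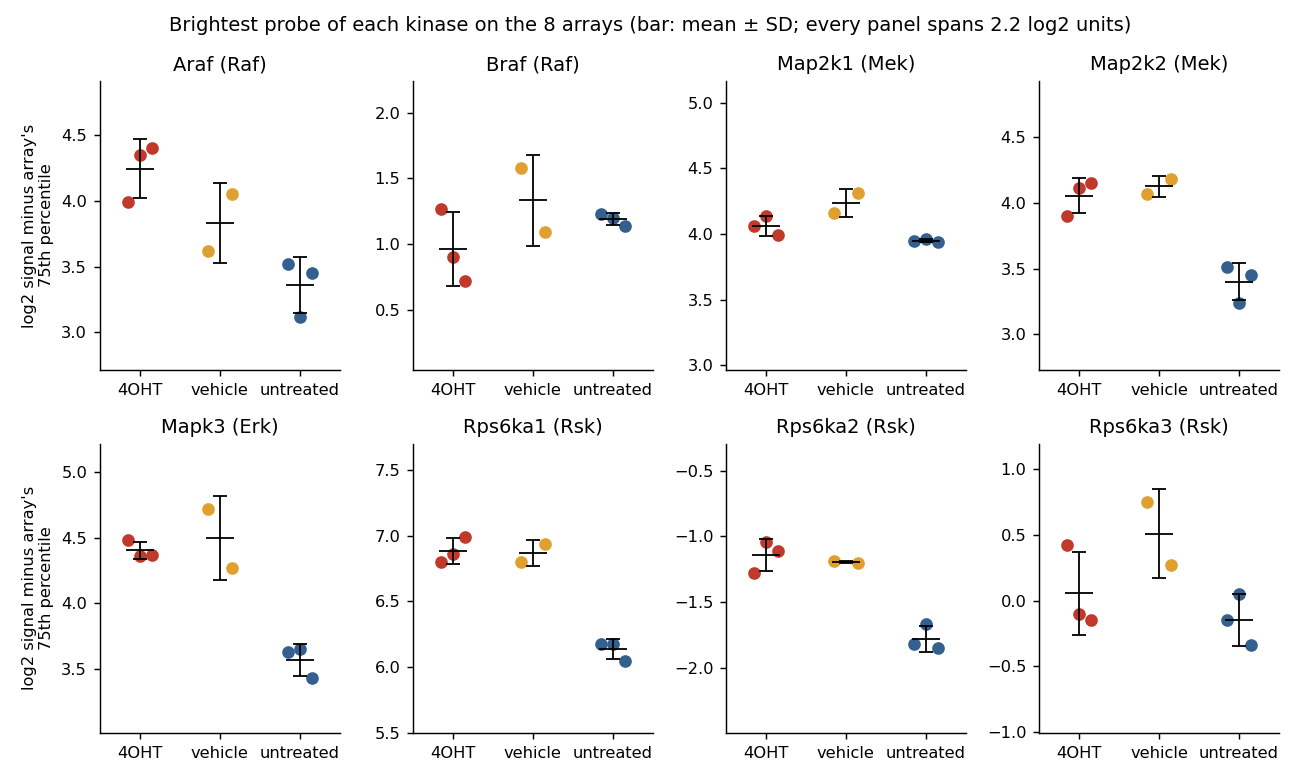
Log2 signal minus the array's 75th percentile (vertical axis, each panel spanning the same range) for the brightest probe of each kinase on the 4OHT, vehicle and untreated arrays (points, 1 per array, with the group's mean ± SD). For Araf, Map2k1, Map2k2, Mapk3, Rps6ka1 and Rps6ka2 every actinomycin D array lay above every untreated array, for Map2k1 by a small step. That order is turned round on the spike-in scale. For Braf and Rps6ka3 the 4OHT and untreated arrays overlapped.

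The comparison of 4OHT with vehicle, with actinomycin D in both, asks whether 4OHT altered the persistence of these mRNAs while transcription was blocked. None of the 14 probes passed the test (adjusted p from 0.34 to 0.98), and their arrays did not overlap for 4 probes, 2 with the 4OHT arrays higher and 2 with them lower, beside 14.0% of all probes with non-overlapping arrays higher and 23.9% lower. Among the brightest probes the lowest differences were those of Rps6ka3, at −0.46 (95% confidence interval −1.0 to 0.09, adjusted p = 0.35) and Braf at −0.37 (−0.84 to 0.10, adjusted p = 0.37). The highest was that of Araf at 0.41 (−0.07 to 0.88, adjusted p = 0.34). All 3 values rested strongly on single vehicle arrays: without vehicle replicate 1 they were −0.22 for Rps6ka3, −0.13 for Braf and 0.19 for Araf, and without vehicle replicate 2 −0.70, −0.61 and 0.62. Without 4OHT replicate 3, Braf stood at −0.25. The second Rps6ka3 probe stood at −0.40 (−1.33 to 0.53, adjusted p = 0.65). For the brightest probes of the other genes the intervals were −0.40 to 0.05 for Map2k1 around −0.17, −0.38 to 0.23 for Map2k2 around −0.07, and −0.45 to 0.27 for Mapk3 around −0.09. They were −0.24 to 0.26 for Rps6ka1 around 0.01 and −0.21 to 0.31 for Rps6ka2 around 0.05. A p above the threshold does not show that the groups were alike. On the spike-in scale 0 of the 14 probes were called, beside 0.127% of all probes called higher and 3.8% lower; 13 of the 14 were below 0, with a median of −0.32 beside −0.35 over all probes.

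**Figure D3:**
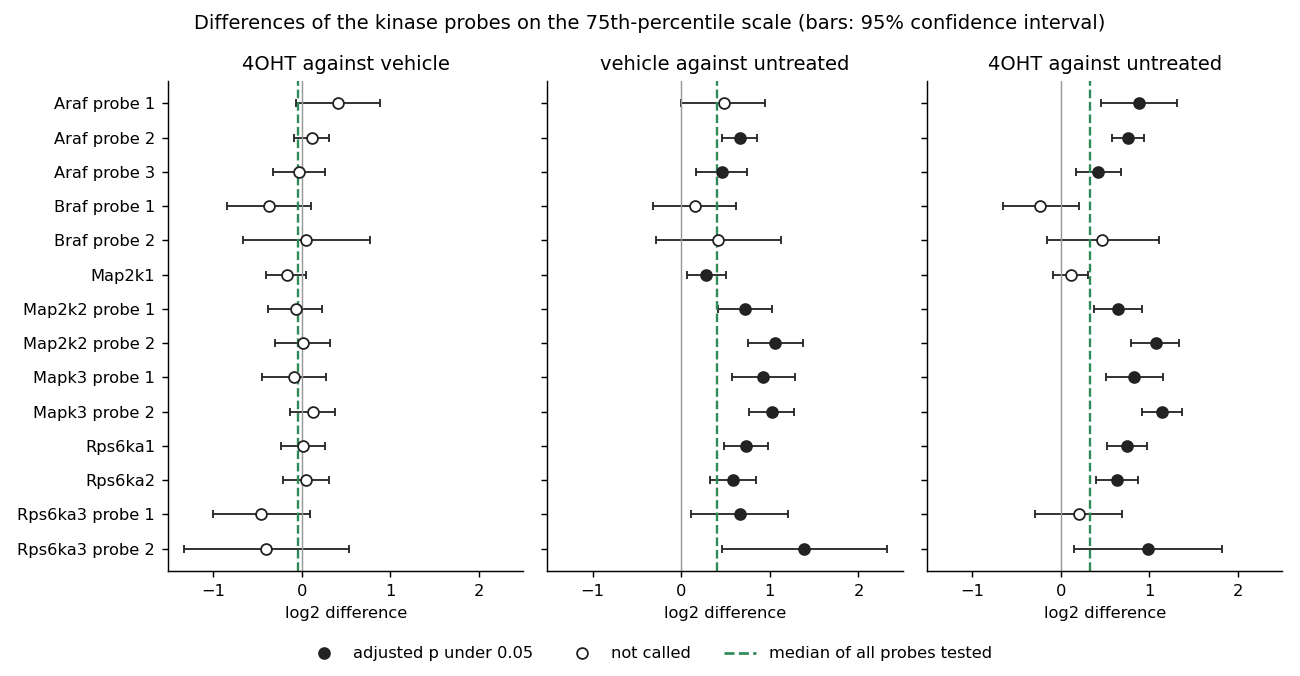
Log2 differences (horizontal axis) of all 14 probes on the 75th-percentile scale, with their 95% confidence intervals as bars, filled where the adjusted p was under 0.05, and the median of all probes tested as a dashed line. For 4OHT against vehicle 0 of 14 were called, with vehicle 11 were called higher than untreated, and with 4OHT 10 were, whereas on the spike-in scale 0 were called higher in any of the 3 comparisons.

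Relative to the spike-in probes most kinase probes were lower after actinomycin D, as were most probes of the array. For vehicle against untreated, 9 of the 14 probes fell and 0 rose, beside 65.0% and 0.1% of all probes called lower and higher on this scale. For 4OHT against untreated, 12 fell and 0 rose, beside 93.1% and 0.0939%. The members' medians were −0.62 and −0.88, against −0.88 and −1.25 over all probes. Among the brightest probes Braf kept the smallest share of the untreated geometric mean. It kept 43.2, 25.5 and 21.3% on the 4OHT arrays and 51.8 and 40.4% on the vehicle arrays. Its fitted difference was −1.81 ± 0.26 with 4OHT (28.6%, adjusted p = 0.00016) and −1.13 ± 0.29 with vehicle (45.8%, adjusted p = 0.0082). The second Braf probe kept more, 46.5% with 4OHT and 55.3% with vehicle, above Map2k1 at 36.2% and 50.3%. Map2k1 followed Braf among the brightest probes with 44.1, 35.5 and 30.3% on the 4OHT arrays and 45.8 and 55.2% on the vehicle arrays. With 4OHT, Rps6ka3 overlapped Map2k1, at 60.3, 32.1 and 29.4%. Mapk3 kept the largest share among the brightest probes with vehicle, 87.7 and 70.0%, which did not pass the test (adjusted p = 0.19), and kept 76.6, 53.9 and 51.2% with 4OHT (adjusted p = 0.0064). On the vehicle arrays Map2k2 kept 68.1%, Rps6ka1 68.7%, Rps6ka3 65.2%, Rps6ka2 61.9% and Araf 57.4%, neighbours whose array values overlap. 4OHT replicate 1 was the highest 4OHT array for all 8 brightest probes on this scale.

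**Figure D4:**
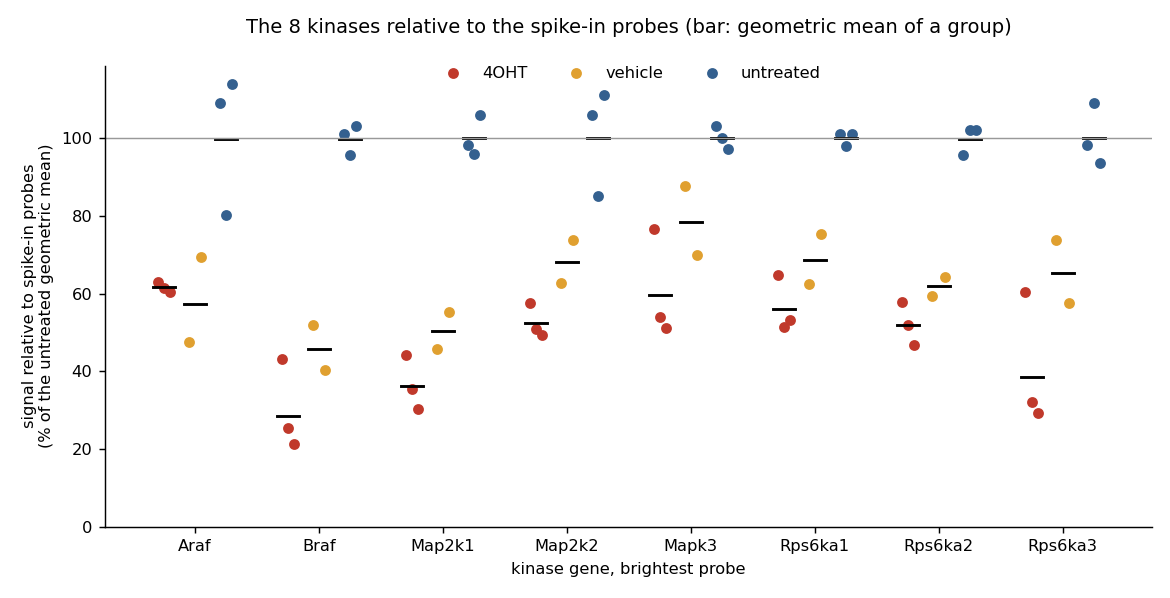
Signal of each kinase's brightest probe relative to the spike-in probes, as percent of the untreated geometric mean (vertical axis from 0), for the 4OHT, vehicle and untreated arrays (points) with each group's geometric mean as a bar. Every actinomycin D array lay below every untreated array of the same gene, from 21.3% for Braf on a 4OHT array to 87.7% for Mapk3 on a vehicle array, whereas on the 75th-percentile scale most genes lay above untreated.

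Whether relatives changed unequally was tested with differences between the brightest probes of 2 genes within each array, which no array scaling factor can move. Only the change of that difference is meaningful, since levels of different probes are not comparable. Over 5 pairs, the 5 actinomycin D arrays were set against the 3 untreated arrays by an exact two-sided permutation test, whose smallest possible p over 56 splits is 0.018. With 5 pairs adjusted together, a single pair at that p reaches 0.089 and no lower. Map2k1 minus Map2k2 read 0.17, 0.03 and −0.15 with 4OHT, 0.10 and 0.13 with vehicle, and 0.44, 0.72 and 0.49 in untreated cells. All actinomycin D arrays lay below all untreated arrays. The change was −0.50 (exact permutation p = 0.018, adjusted p = 0.089), with −0.53 for the 4OHT arrays and −0.44 for the vehicle arrays alone, so Map2k1 was lower relative to Map2k2 in 5 of 5 arrays without passing the correction. After quantile normalization the change was −0.56 (adjusted exact p = 0.045), an adjusted value below 0.089 because Rps6ka1 minus Rps6ka2 then reached the smallest p as well, with its sign turned (−0.62).

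Araf minus Braf read 2.72, 3.45 and 3.68 with 4OHT, 2.05 and 2.96 with vehicle, and 2.29, 1.92 and 2.32 in untreated cells. Vehicle replicate 1 lay among the untreated arrays and the other actinomycin D arrays above them. The change was 0.80 (exact permutation p = 0.089, adjusted p = 0.21), with 1.11 for the 4OHT arrays alone and 0.33 for the vehicle arrays alone. Among the Rsk genes the changes were 0.13 for Rps6ka1 minus Rps6ka2 (adjusted exact p = 0.21), 0.36 for Rps6ka1 minus Rps6ka3 (adjusted exact p = 0.36) and 0.23 for Rps6ka2 minus Rps6ka3 (adjusted exact p = 0.38). The arrays overlapped for all 3 Rsk pairs, and their signs depended on the processing.

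**Figure D5:**
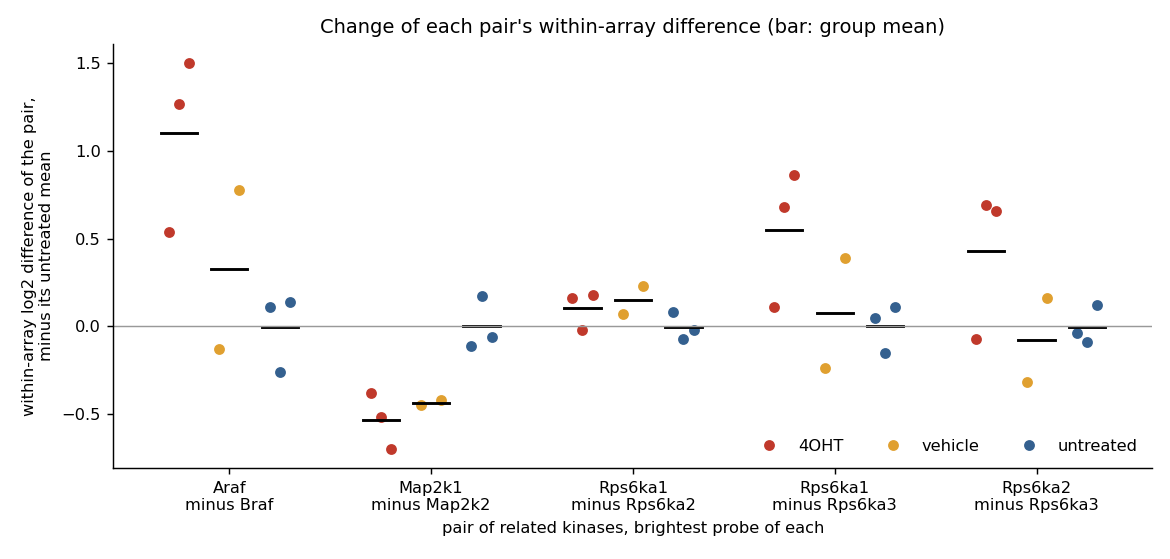
Within-array log2 difference between the brightest probes of related kinases, minus its untreated mean (vertical axis), for the 4OHT, vehicle and untreated arrays (points, bar at the group mean). Map2k1 minus Map2k2 was the 1 pair of the 5 whose actinomycin D arrays all lay on the same side of the untreated arrays, with a change of −0.50.

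By likeness over the 8 arrays (root mean square difference after each probe's mean is subtracted, among 14922 other symbols), Mapk3 lay closest to Hsbp1 (0.039) and Ube2e1 (0.048), where its own spread was 0.44. Map2k2 lay closest to Emc1 (0.029) and Tspan3 (0.035), and Map2k1 to Maea (0.040) and Fbxw2 (0.058). Rps6ka1 lay closest to Bin3 (0.038) and Wdr70 (0.042), Rps6ka2 to 6430548M08Rik (0.048) and Recql5 (0.052), and Rps6ka3 to LOC547349 (0.060) and Noxo1 (0.080). Araf lay closest to Akt1 (0.056) and Pdrg1 (0.058), and Braf to Fam178b (0.078) and Rsph3b (0.087). The own spreads of the kinases other than Mapk3 ran from 0.12 for Map2k1 to 0.43 for Araf, with 0.24 for Braf. The closest of so many symbols lie near by selection, no baseline was set, and shared function was not tested.

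Related genes of the pathway were read with 1 probe per symbol, over 14930 symbols, of which 41.5% were called higher and 19.2% lower with vehicle, 1.32% and 3.07% for 4OHT against vehicle, and 43.8% and 21.5% for 4OHT against untreated. One list held 10 further kinases in or near the ERK module, the S6 kinases Rps6kb1 and Rps6kb2 among them. Of these 10, 7 were called higher and 1 lower with vehicle (median 0.45 against 0.35 over all symbols). For 4OHT against vehicle 0 were called, and for 4OHT against untreated 7 higher and 0 lower. Rps6ka6, the remaining Rsk gene, rose by 0.85 with vehicle and Rps6kb2, an S6 kinase, by 0.82, with −0.42 and −0.45 on the spike-in scale and below untreated unscaled, and the Rps6ka6 call was lost with cyclic loess. Rps6ka5, a nuclear kinase related to Rsk, fell by 0.49 (adjusted p = 0.034) with vehicle, a call lost without untreated replicate 1, either vehicle array or 4OHT replicate 2, with array-median scaling, no filter, only the groups compared or the replicate block, and with 0.00 under normexp background.

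Upstream of Raf the list split. Of 14 adaptors, exchange factors and GTPase-activating proteins, 6 were called higher and 5 lower with vehicle (median −0.06, −1.34 on the spike-in scale) and 5 and 5 with 4OHT against untreated. Sos2, a Ras exchange factor, fell by 1.23 with vehicle, and Frs3, an FGF receptor adaptor, by 1.37. Frs3 was well above background on only 1 of the 2 vehicle arrays, at a vehicle mean of −4.63, so the size of its fall is uncertain. The Frs3 call was lost without any 1 of the untreated arrays, without vehicle replicate 2 and with no filter. With normexp background Frs3 stood at 0.28, and the Sos2 call was lost. Cbl, a ubiquitin ligase for receptors, rose by 0.77 and Nf1, a Ras GTPase-activating protein, by 0.70, but both were below untreated unscaled and on the spike-in scale (−0.50 and −0.57), and array-median scaling ended the Nf1 call. Of 26 scaffolds and binding regulators, 18 were called higher and 4 lower with vehicle (median 0.91, −0.36 on the spike-in scale). Hsp90aa1 and Hsp90ab1, chaperones of Raf, rose by 1.16 and 1.09, with −0.12 and −0.19 on the spike-in scale, and quantile normalization, cyclic loess and unscaled values put Hsp90ab1 below untreated and ended the Hsp90aa1 call. Shoc2, a scaffold that promotes Raf activation, fell by 1.14, and Cnksr3 fell by 1.46. Of 24 genes of parallel MAP kinase modules, 10 were called higher and 4 lower with vehicle, with Mapk7 (Erk5) at −0.85 and Map3k2, which acts above it, at −1.26. Mapk13, a p38 kinase, and Map3k4 rose by 0.95 and by 0.65, but were below untreated unscaled and on the spike-in scale (−0.32 and −0.63), and quantile normalization and cyclic loess ended both calls. The Mapk13 call was also lost without untreated replicate 3 or vehicle replicate 1, and the Map3k4 call with array-median scaling. Of 15 other AGC kinases, the family of the Rsk N-terminal domain, 10 were called higher and 1 lower with vehicle. Sgk1 was the 1 that fell, by 3.08, and Prkaca and Akt2 rose by 0.97 and by 0.88, with −0.30 and −0.40 on the spike-in scale and below untreated unscaled, and cyclic loess ended the Akt2 call. Of 23 nuclear targets and substrates, 13 were called higher and 3 lower. Etv3 and Erf, ETS-family repressors, stood at −1.66 and −1.33. Etv3 was not well above background on every array, and its difference ranged from −2.93 to −0.32 over the settings run. The Erf call was lost without untreated replicate 1 or 3 or vehicle replicate 1 and with only the groups compared. Ybx1, a cold-shock protein, rose by 1.18 and Rps6, a ribosomal protein, by 1.0, with −0.10 and −0.27 on the spike-in scale, and quantile normalization, cyclic loess and unscaled values put Rps6 below untreated and ended the Ybx1 call.

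For 4OHT against vehicle these 6 lists held 3 calls, all lower. They were 1 of 26 scaffolds and regulators, 1 of 15 AGC kinases and 1 of 23 nuclear targets and substrates. In the remaining lists 0 of 10, 0 of 14 and 0 of 24 were called. Over all symbols 1.32% were called higher and 3.07% lower, and whether the lists differ from that share was not tested. Cnksr3, from the list of scaffolds and regulators, fell by 1.02 ± 0.12 (adjusted p = 0.013), with group means of −2.07 with 4OHT, −1.06 with vehicle and 0.40 untreated. Prkcd, a protein kinase C, fell by 0.79 ± 0.11 (adjusted p = 0.017), and Creb1, a transcription factor that Rsk kinases phosphorylate, by 0.60 ± 0.10 (adjusted p = 0.031). All 3 calls were lost without either vehicle array (Cnksr3 adjusted p = 0.067 and 0.055, Prkcd 0.074 and 0.067, Creb1 0.14 and 0.090), and without 4OHT replicate 2; Prkcd was also lost without 4OHT replicate 3, and Creb1 without untreated replicate 2 or 3 or 4OHT replicate 1 or 3. Array-median scaling, no scaling, no filter, only the groups compared and the replicate block each ended all 3 calls, and Creb1 was also lost with normexp background, on the spike-in scale and as the mean of probes, in 15 of 24 settings in all. The fixed reference genes show the scale of loss the same arrays record: with vehicle, the changes were −4.85 for Dusp6, an Erk phosphatase, and −3.68 and −4.71 for Egr1 and Myc, early response genes, and Spry4, a feedback inhibitor, was not well above background on either vehicle array. Gapdh and Actb rose by 1.33 and 1.11 on the 75th-percentile scale, and stood at 0.05 and −0.17 on the spike-in scale, Actb being below untreated also after quantile normalization and with cyclic loess. Neither was called under those settings or unscaled.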

How the data were processed

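Per the file headers, the authors deposited linear, background-subtracted intensity values made with Agilent Feature Extraction 11.0.1.1, on an array annotated to mm9. The labels name Cy5, while the deposited files hold the green channel. The deposited value table equals that intensity within a relative difference of 0.005. Per the labels' protocols, total RNA was amplified into cRNA and labelled.

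From these values, spots of a probe were averaged without outlier-marked spots, log2 was taken and each array's 75th percentile over non-control spots was subtracted. Kept were 33008 probes that exceeded background clearly on all arrays of some group. Differences were tested in 1 limma 3.58.1 fit (R 4.3.3, lmFit and eBayes, 5 residual degrees of freedom), two-sided and Benjamini-Hochberg adjusted over all kept probes, called under 0.05. Errors are standard errors with 3 4OHT, 2 vehicle and 3 untreated arrays. The limma p-values set each difference against the spread between these arrays, moderated over all kept probes (1.92 prior degrees of freedom). The number of arrays limits the precision. The spike-in scale subtracts the mean of 8 of 10 Agilent E1A control probes, whose addition the labels do not describe. The script was tested on simulated data.

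The kinases, pairs and lists were chosen with earlier results of these data known, so the lists are no independent evidence. Named from each list, per comparison, are up to 2 called genes with the largest rise and 2 with the largest fall with groups not overlapping and signal clearly over background on all arrays of the brighter group; those of 4OHT against untreated are not printed. Fixed reference genes were Dusp6, Spry4, Egr1, Myc, Gapdh and Actb. Likeness names the 2 closest symbols per kinase. Names come from RefSeq (GRCm38.p6) through accessions. The alternatives were other background, scaling, filter, probe-choice and variance settings, a replicate block and leaving out each array. Some genes of the lists are not reported here by name.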

Additional observations from a re-analysis of the deposited data

How the results depend on the processing

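The scale decided the direction of the comparisons with untreated. Of 14 probes, vehicle was called higher for 11 on the 75th-percentile scale, 7 after quantile normalization, 5 with cyclic loess, 5 scaled to the array median, and 0 unscaled or on the spike-in scale, where 2 and 9 were called lower. With 4OHT the 10 higher calls became 5 with cyclic loess and 0 unscaled or spike-in scaled, with 1 lower after quantile normalization, 1 with cyclic loess, 4 unscaled and 12 spike-in scaled. With 1 value per gene (of 8), the higher calls were 6 (brightest probe) and 7 (mean of probes) for vehicle, and 5 and 5 for 4OHT. Over all probes, the share of calls that were higher for vehicle against untreated was 72.5%, 85.0% with normexp, 61.0% with quantile normalization, 44.3% with cyclic loess, 0.243% unscaled and 0.154% spike-in scaled; for 4OHT against untreated 69.4%, 84.6% with normexp, 47.0% with cyclic loess, 0.554% unscaled and 0.101% spike-in scaled; and for 4OHT against vehicle 27.2% and 3.24% spike-in scaled. Calls of the 14 for 4OHT against vehicle were 0 in every setting run. Why these differ was not tested.

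Brightest probes that changed sign, vehicle minus untreated: spike-in scaled Araf −0.80, Braf −1.13, Map2k1 −0.99, Map2k2 −0.55, Mapk3 −0.35, Rps6ka1 −0.54, Rps6ka2 −0.69 and Rps6ka3 −0.62; unscaled −0.62, −0.95, −0.81, −0.37, −0.17, −0.36, −0.51 and −0.44 in the same gene order; cyclic loess Araf −0.05, Braf −0.14, Map2k1 −0.27 and Rps6ka1 −0.08; quantile Map2k1 −0.14 and Rps6ka1 −0.08; normexp Braf −0.05. For 4OHT minus untreated they were, spike-in scaled, Araf −0.70, Map2k1 −1.47, Map2k2 −0.93, Mapk3 −0.75, Rps6ka1 −0.83, Rps6ka2 −0.94 and Rps6ka3 −1.38; unscaled −0.17, −0.94, −0.41, −0.22, −0.31, −0.42 and −0.85 in that order; cyclic loess Map2k1 −0.43, Rps6ka1 −0.00 and Rps6ka3 −0.05; quantile Map2k1 −0.29 and Rps6ka1 −0.01; normexp Map2k1 −0.10; and with the mean of probes Braf 0.12. For 4OHT minus vehicle they were Mapk3 0.02 (mean of probes), Rps6ka2 −0.01 (normexp), Rps6ka1 −0.29 and Rps6ka2 −0.25 (spike-in), and Map2k2 0.05 and Mapk3 0.03 (array median).

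Within arrays, Araf minus Braf was 0.33 with vehicle alone, Map2k1 minus Map2k2 −0.56 after quantile normalization, Rps6ka1 minus Rps6ka2 −0.02 with normexp and −0.62 with quantile, Rps6ka1 minus Rps6ka3 −0.40 with quantile and −0.03 with the mean of probes, and Rps6ka2 minus Rps6ka3 −0.15 with the mean of probes and −0.08 with vehicle alone.

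Leaving out each array in turn gave −0.09 to 0.39 for Braf (vehicle minus untreated). The ranges of 4OHT minus vehicle were −0.13 to 0.00 for Map2k2, −0.31 to 0.13 for Mapk3, −0.06 to 0.09 for Rps6ka1 and −0.00 to 0.12 for Rps6ka2. A lone vehicle array was assumed to vary like the other groups. Higher calls ranged from 8 to 10 for vehicle and from 9 to 10 for 4OHT, both against untreated.

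Whether replicate numbers pair the arrays could not be settled. With each group's mean subtracted, same-numbered arrays correlated at −0.04 and −0.21 for vehicle and untreated. For 4OHT and untreated they correlated at −0.05, −0.16 and 0.12. For 4OHT and vehicle they correlated at 0.38 and 0.23, and the crossed pairs of replicates 1 and 2 at −0.38 and −0.23. These opposite signs are forced, since 2 centred vehicle arrays mirror each other. With the replicate number as a block, 8 probes were called higher with vehicle and 9 with 4OHT, both against untreated.

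The arrays cannot separate slide from 4OHT, and 2 vehicle arrays leave wide intervals. The second Rps6ka3 probe was not well above background on 1 untreated array, and the vehicle arrays of the second Braf probe stood far apart.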
